A study of Mus musculus with 6 samples.

Results

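The mitosis and spindle genes are a set of 51 genes whose products run cell division: the cyclin B, cyclin A and CDK1 kinase module, the chromosomal passenger complex, the kinetochore and its checkpoint, the mitotic motors, spindle proteins, cytokinesis proteins and condensin. They were chosen by name from a list, and all 51 were found among the 13278 named genes of the deposited table and among the 12025 genes whose read counts could be recovered from it. Levels were followed over 497 single cells, haematopoietic stem cells and progenitors sorted from marrow or spleen of C57BL/6 mice and sequenced by a modified Smart-seq2 method with enrichment of transcript 3' ends. The cells lie in 6 libraries, 1 per group, so each difference compares 2 libraries and has no replicate check.

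Transcripts of these genes follow the cell cycle. Most are kept low in resting and G1 cells, begin to accumulate as DNA is copied, peak in G2 and mitosis, and many of their proteins are then destroyed by the anaphase-promoting complex. The late cell-cycle promoters are known for a CHR element (cell cycle genes homology region), bound by the MuvB core of the DREAM and B-MYB complexes, often beside CCAAT boxes bound by NF-Y. Haematopoietic stem cells are largely resting in adult marrow, and multipotent progenitors divide more often.

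The HPC1 library held CD201+CD48- and CD48+ cells of the HPC1 progenitor gate (82 cells), and the HSC1 library held the same surface classes of the HSC1 stem cell gate (84 cells). Both are labelled spleen, although the title of the series speaks of marrow, and both came from mice of 8 to 10 weeks. The HSC2/MPP4 library had MPP4 cells along with the CD48+ part of HSC2 (89 cells). The CD48-negative HSC2 library had the CD48- part of HSC2, in its CD201+ and CD201- fractions (86 cells), both from the marrow of mice of 8 weeks, with total RNA given as the molecule. The MPP2-containing library mixed 4 gates, MPP2, CD48+ HPC1, CD48+ HSC1 and the CD201-CD48- part of HPC1 (80 cells). The double-negative library mixed HPC1 and HSC1 cells lacking CD201 and CD48 (76 cells); both came from the marrow at 8 to 10 weeks. No genetic change or treatment is given for any library. A cell could not be traced to its gate, so the gates mixed in 1 library cannot be told apart, nor can gate and library. All 11 listed stem and progenitor genes (Kit, Cd34, Ly6a, Mecom and others) were counted in every library, at 1442 to 3146 CPM summed. Such pooled counts do not settle the identity of the cells. All 9 listed erythroid genes were also counted in every library, at 1105 to 5902 CPM summed. Cell numbers in the column names repeat between libraries (47 numbers occur in all 6) and are names only. The closest pair of cells from different libraries had a correlation of 0.855 across genes, against 0.852 for the closest pair within a library.

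The promoters of 5 members are shown because they carry the paired elements for which the class is known, from 120 bases before to 30 bases after the annotated transcription start. Capitals mark CHR elements (TTTGAA or TTCGAA, or TTCAAA on the other strand) and CCAAT boxes (ATTGG on the other strand). All are read 5′ to 3′ on the gene's own strand, which is the minus strand in each case, from the RefSeq promoter table of build GRCm38.p6: Ccnb2 (cyclin B2) at chr9:70421525-70421674, Cdk1 (the mitotic kinase) at chr10:69352883-69353032, Cdc20 (activator of the anaphase-promoting complex) at chr4:118437314-118437463, Kif23 (a motor of the central spindle) at chr9:61946770-61946919 and Top2a (topoisomerase II alpha) at chr11:99024160-99024309.
Ccnb2: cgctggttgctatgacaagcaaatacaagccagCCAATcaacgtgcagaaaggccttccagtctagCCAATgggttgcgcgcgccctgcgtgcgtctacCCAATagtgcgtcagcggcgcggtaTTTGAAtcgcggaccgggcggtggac
Cdk1: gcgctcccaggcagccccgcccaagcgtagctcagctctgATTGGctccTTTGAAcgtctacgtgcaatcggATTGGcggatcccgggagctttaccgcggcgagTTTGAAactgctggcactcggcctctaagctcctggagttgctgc
Cdc20: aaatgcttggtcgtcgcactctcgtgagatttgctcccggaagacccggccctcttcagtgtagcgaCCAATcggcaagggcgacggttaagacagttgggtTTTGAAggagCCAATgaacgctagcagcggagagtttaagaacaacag
Kif23: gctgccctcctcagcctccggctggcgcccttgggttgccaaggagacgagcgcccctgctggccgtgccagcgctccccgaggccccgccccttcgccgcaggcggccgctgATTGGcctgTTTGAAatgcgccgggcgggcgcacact
Top2a: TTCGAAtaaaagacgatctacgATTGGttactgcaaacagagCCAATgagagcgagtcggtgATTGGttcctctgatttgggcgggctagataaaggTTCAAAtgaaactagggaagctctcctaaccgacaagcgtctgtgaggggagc

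Ccnb2 carries 3 CCAAT boxes and 1 CHR element in this window, Cdk1 carries 2 of each, and Top2a carries 3 CCAAT boxes and 2 CHR elements. Over windows of 300 bases, searched on both strands, 34 of the 42 members with a promoter entry (81%) held a CHR element, 32 (76.2%) held a CCAAT box and 29 (69%) held both. Of all 27025 genes of the promoter table, 21.7% held a CHR element, 41.1% a CCAAT box and 8.61% both. Of 58 other mitosis genes with an entry 60.3% held a CHR element, 62.1% a CCAAT box and 41.4% both. Of 23 S phase genes 17.4% held a CHR element, 65.2% a CCAAT box and 13% both. A share of CCAAT boxes above that of all genes was thus not particular to the members. The 2 elements do not overlap in sequence, and a match describes letters in a window, not binding. Ccnb1, Cks2 and Cenpe had a CCAAT box and no CHR element in the window, and Birc5, Nusap1, Nuf2, Tacc3 and Ncaph had neither.

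Libraries differed in depth: recovered totals ran from 2778858 counts (CD48-negative HSC2) to 15019501 counts (MPP2-containing), and the median cell from 23540 to 145496 counts. Levels are therefore given as CPM, the pooled counts of a library's cells per 1000000. Their exact 95% Poisson intervals cover counting error only, because the reads are not stated to carry molecular identifiers and cells of 1 library are not replicates. Counts are not adjusted for transcript length, so CPM compares libraries for 1 gene and not genes with each other.

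Summed over all 51 genes, the MPP2-containing library was highest and CD48-negative HSC2 lowest. The sum was 5830 CPM (5786 to 5874) in HPC1 against 3366 (3322 to 3411) in HSC1. It was 5768 (5693 to 5844) in HSC2/MPP4 against 3023 (2959 to 3089) in CD48-negative HSC2. It was 9133 (9085 to 9182) in the MPP2-containing library against 4231 (4191 to 4272) in the double-negative library. None of the 6 counting intervals overlapped except those of HPC1 and HSC2/MPP4, whose sums were close. By gene, 46 of the 51 members had their highest level in the MPP2-containing library, 4 (Kif11, Ect2, Cdca2 and Ncapg) in HSC2/MPP4 and 1 (Ndc80) in HPC1. Of the genes highest elsewhere, only Ect2 had a counting interval clear of its interval in the MPP2-containing library. Without its highest cell in each library, Kif11 stood at 81.8 CPM in HSC2/MPP4 and 82.7 in the MPP2-containing library. The lowest level fell in CD48-negative HSC2 for 28 members, in HSC1 for 13, in the double-negative library for 8 and in HPC1 for 2.

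A few cells carried much of each sum. Per cell, the median sum was 1554 CPM in HPC1 and 1279 in HSC1, 1510 in HSC2/MPP4 against 602 in CD48-negative HSC2, and 3996 in the MPP2-containing library against 1048 in the double-negative one, well under the pooled levels. The lowest cell stood at 310 CPM in HPC1 and 80.8 in HSC1, at 56.7 in HSC2/MPP4 against 0 in CD48-negative HSC2, and at 935 in the MPP2-containing library against 288 in the double-negative one. The highest cells reached 24783 CPM in HPC1 and 21081 in HSC1, 43527 in HSC2/MPP4 against 22710 in CD48-negative HSC2, and 25097 in the MPP2-containing library against 29070 in the double-negative one. The highest cells thus differed less between libraries than the median cells did, and each library covered a range of at least an order of magnitude.

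**Figure D1:**
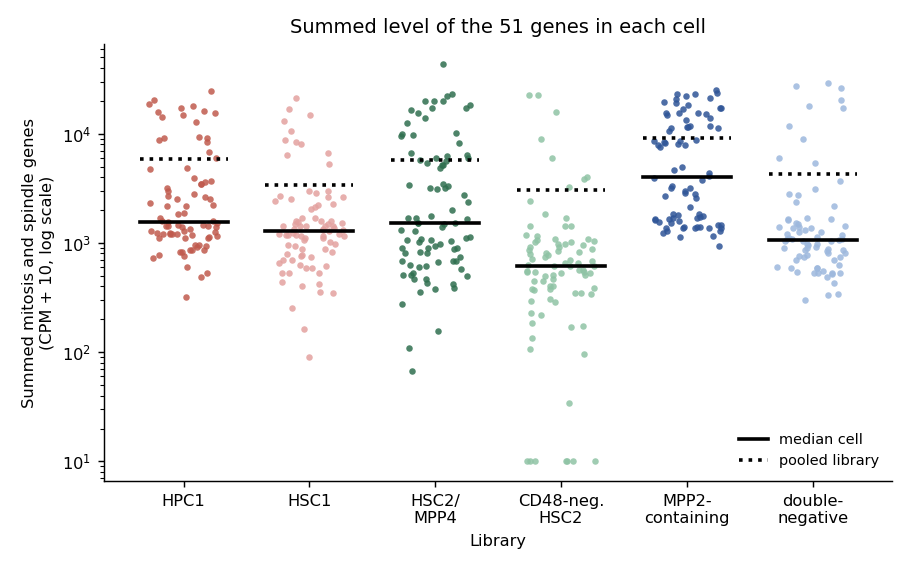
Each point is 1 cell, placed by the summed level of the 51 genes (CPM with 10 added, log scale) in its library; the solid bar is the median cell and the dotted bar the pooled library. The median cell lies at 3996 CPM in the MPP2-containing library and at 602 CPM in CD48-negative HSC2, and in every library some cells lie above 10000 CPM.

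In HPC1 the cell with the most counts held 11.8% of the library's counts of the 51 genes, against 24.3% in HSC1. The share was 15.7% in HSC2/MPP4 against 51.5% in CD48-negative HSC2, and 5.67% in the MPP2-containing against 28.5% in the double-negative library. The CD48-negative HSC2 cell held 6.87% of all counts of its library, counted 50 of the 51 genes and was the highest cell for 49 of them. Without that cell the library's sum was 1575 CPM in place of 3023, and without the corresponding cell the double-negative sum was 3171 in place of 4231 and the HSC1 sum 2650 in place of 3366. To reach 50% of the counts of the 51 genes took 6 cells in HPC1 and 3 in HSC1, 8 in HSC2/MPP4 against 1 in CD48-negative HSC2, and 11 in the MPP2-containing library against 3 in the double-negative one. Cells that gave at least 1% of their own counts to the 51 genes numbered 11 in HPC1 against 5 in HSC1, 14 in HSC2/MPP4 against 3 in CD48-negative HSC2, and 27 in the MPP2-containing library against 7 in the double-negative one.

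**Figure D2:**
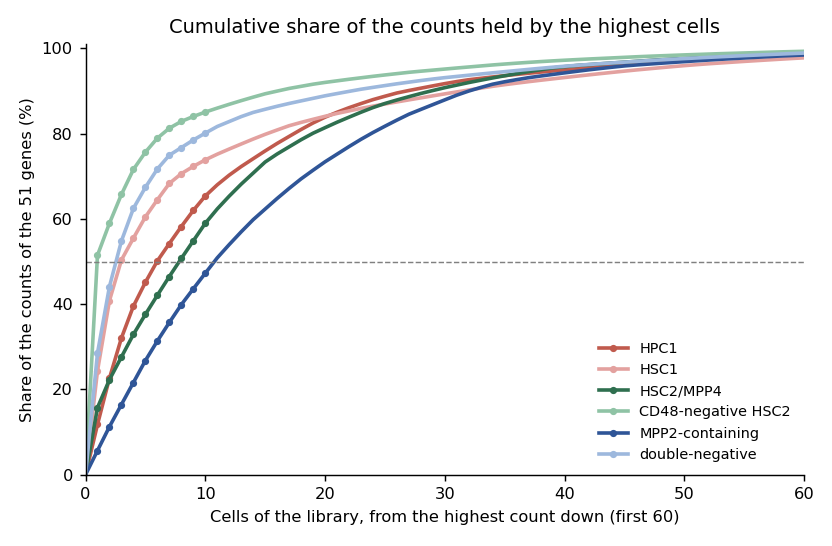
Cumulative share of a library's counts of the 51 genes (percent) against its cells ranked from the highest count down, 1 line per library, with the first 60 cells shown; the dashed line marks 50%. CD48-negative HSC2 passes the line with 1 cell and the MPP2-containing library with 11.

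To compare cells at 1 depth, each was thinned to 10000 counts, which left out 1 HPC1, 4 HSC1, 8 HSC2/MPP4, 20 CD48-negative HSC2, 0 MPP2-containing and 1 double-negative cells as too shallow. At least 10 of the 51 genes were then counted in 43 of 81 HPC1 cells (53.1%, exact binomial interval 41.7 to 64.3) against 20 of 80 HSC1 cells (25%, 16 to 35.9). They were counted in 37 of 81 HSC2/MPP4 cells (45.7%, 34.6 to 57.1) against 9 of 66 CD48-negative HSC2 cells (13.6%, 6.43 to 24.3). The MPP2-containing library had 62 of 80 (77.5%, 66.8 to 86.1) and the double-negative library 18 of 75 (24%, 14.9 to 35.3). These intervals cover the counting of cells within 1 library and say nothing of the spread between preparations. At the cut of 10 they did not overlap within a pair. They did for HPC1 (24.3 to 46) and HSC1 (8.95 to 26.2) at a cut of 15, and for the same pair in cells thinned to 5000 counts, with 32.1% (22.2 to 43.4) of HPC1 against 14.6% (7.8 to 24.2) of HSC1 cells past 10 genes. Unthinned, the same cut was passed by 98.8% of HPC1 against 85.7% of HSC1 cells, 51.7% of HSC2/MPP4 against 15.1% of CD48-negative HSC2 cells, and 100% of MPP2-containing against 97.4% of double-negative cells. The cut of 10 is a range and not a cell type: 23 HPC1 and 19 HSC1 cells, 6 HSC2/MPP4 and 2 CD48-negative HSC2 cells, and 23 MPP2-containing and 14 double-negative cells lay within 2 genes of it.

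**Figure D3:**
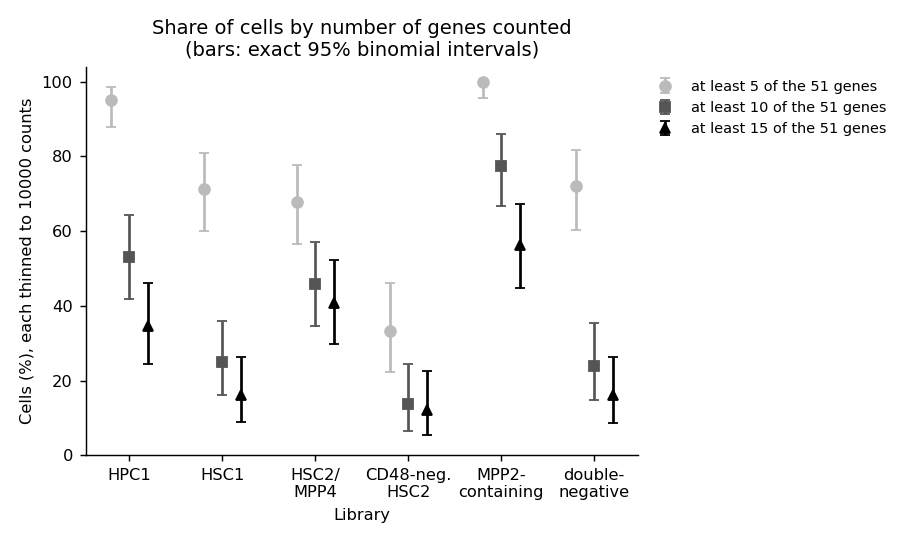
Share of cells (percent, each cell thinned to 10000 counts) in which at least 5, 10 or 15 of the 51 genes were counted, by library, with exact 95% binomial intervals. At a cut of 15 the share is 34.6% in HPC1 against 16.2% in HSC1, 40.7% in HSC2/MPP4 against 12.1% in CD48-negative HSC2, and 56.2% in the MPP2-containing library against 16% in the double-negative one.

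Among cells past the cut of 10, the libraries lay closer together than as a whole, and their pooled levels were 8415 CPM in HPC1 and 9523 in HSC1, 9248 in HSC2/MPP4 against 11511 in CD48-negative HSC2, and 10593 in the MPP2-containing library against 12352 in the double-negative one. Below the cut the pooled level was 1145 CPM in HPC1 and 976 in HSC1, 915 in HSC2/MPP4 against 631 in CD48-negative HSC2, and 1461 in the MPP2-containing library against 929 in the double-negative one. By pooled level the order within each of these pairs was turned round among cells past the cut, and kept below it. Pooled levels weigh the deep cells most. The median cell past the cut stood at 3568 CPM in HPC1 and 5834 in HSC1, but at 6701 in HSC2/MPP4 against 5944 in CD48-negative HSC2 and at 8361 in the MPP2-containing library against 5668 in the double-negative one, so that by median cells only the pair of HPC1 and HSC1 was turned round. The cut itself uses these genes, so the levels on both sides of it are a description. Cells past the cut were also deeper in several libraries, with medians of 135455 counts against 103384 below it in HPC1, 47959 against 29778 in HSC2/MPP4, 51373 against 29295 in CD48-negative HSC2 and 169682 against 98142 in the MPP2-containing library. The part of depth in the original cells was not tested beyond the thinning.

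Set against 30 S phase genes (replication factors, histone chaperones and nucleotide enzymes), the mitosis and spindle genes traced an arch across cells. Cells low in both lay at 1 end, cells high in S phase genes with intermediate mitosis genes at the bend, and cells highest in mitosis genes with S phase genes below the bend at the other end. With cuts chosen after the values were seen, 12 of 81 thinned HPC1 cells held at least 100 counts of the 51 genes per 10000, and their S phase sum had a median of 27 counts. A further 19 HPC1 cells held at least 50 S phase counts and fewer than 100 of the 51 genes, with a median of 35 counts of the 51 genes. The 50 remaining HPC1 cells had medians of 10 S phase and 12 mitosis counts. In the other libraries the median S phase sum of cells with at least 100 counts was 41 in HSC1, 22 in HSC2/MPP4, 13 in CD48-negative HSC2, 27 in the MPP2-containing library and 20 in the double-negative one. In CD48-negative HSC2 these were 3 cells, and their median was close to the 12 of the cells low in both.

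The same kinds of cell were present in all 6 libraries in different numbers. Cells with at least 100 counts of the 51 genes made up 14.8% of HPC1 against 7.5% of HSC1 cells, 19.8% of HSC2/MPP4 against 4.55% of CD48-negative HSC2 cells, and 33.8% of MPP2-containing against 9.33% of double-negative cells. Cells with at least 50 S phase counts but fewer than 100 of the 51 genes made up 23.5% of HPC1 against 11.2% of HSC1 cells, 35.8% of HSC2/MPP4 against 9.09% of CD48-negative HSC2 cells, and 26.2% of MPP2-containing against 10.7% of double-negative cells. The HSC2/MPP4 library had the largest share of these S phase-rich cells, and the MPP2-containing library the largest share of cells with at least 100 counts. Both sums were high together in 3 HPC1, 3 HSC1, 3 HSC2/MPP4, 0 CD48-negative HSC2, 7 MPP2-containing and 0 double-negative cells. As a description, Spearman's rho of the 2 sums across thinned cells, which share library and depth, was 0.58 in HPC1 (81 cells) and 0.47 in HSC1 (80), 0.41 in HSC2/MPP4 (81) against 0.32 in CD48-negative HSC2 (66), and 0.13 in the MPP2-containing library (80) against 0.40 in the double-negative one (75).

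**Figure D4:**
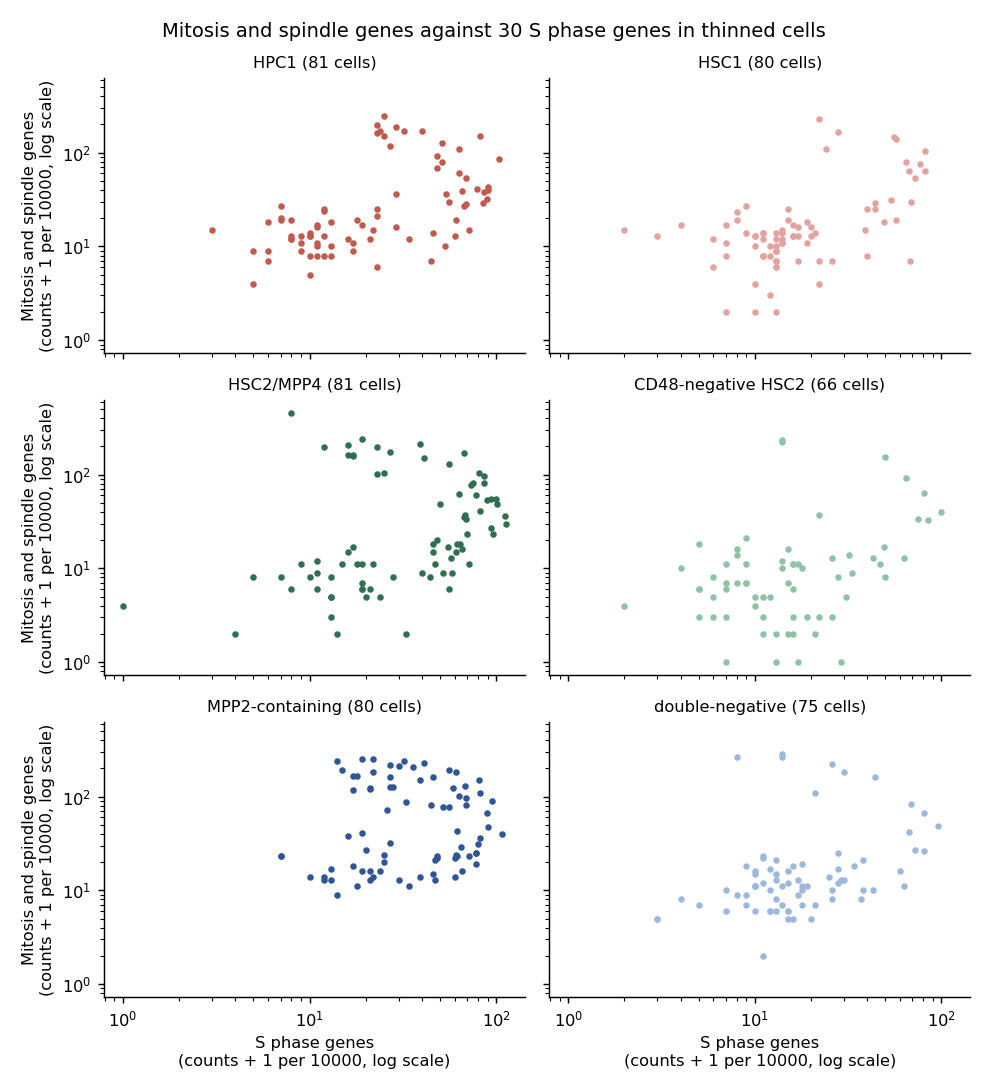
Summed counts of the 51 genes against summed counts of 30 S phase genes, each with 1 added, in cells thinned to 10000 counts (log scales), 1 panel per library. Cells with at least 100 counts of the 51 genes have median S phase sums from 13 (CD48-negative HSC2, 3 cells) to 41 (HSC1), all under the 50 counts that mark the S phase-rich cells at the right-hand bend.

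The make-up of the counts of the 51 genes differed between the 2 kinds of cell. As a share of all counts of the 51 genes and as a mean over the 6 libraries, Ube2c, the ubiquitin-conjugating enzyme of the anaphase-promoting complex, made up 7.52% in cells with at least 100 counts and 0.848% in the S phase-rich cells. Cyclin B1 (Ccnb1) made up 2.15% and 0.487%, cyclin B2 (Ccnb2) 4.98% and 1.17%, the hyaluronan receptor and spindle protein Hmmr 1.64% and 0.37%, and the kinetochore protein Cenpf 3.54% and 1.05%. Each of these had the higher share in the cells with at least 100 counts in 6 of 6 libraries. In all, 14 genes did so, the others being Cenpe, Cdc20, Aurka, Kif4, Kif2c, Anln, Cdca3, Tpx2 and Cks2. The cut uses the sum of these same genes, and a share can rise only as others fall, so the shares are a description.

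The opposite held for 10 genes, whose share was lower in the cells with at least 100 counts in 6 of 6 libraries. Spc24, a subunit of the NDC80 kinetochore complex, made up 2.04% there and 6.57% in the S phase-rich cells. Cks1b, a CDK-binding protein, made up 3.84% and 9.3%, and the condensin subunit Smc2 2.72% and 6.35%. The others were Cdk1, Aurkb, Tacc3, Smc4, Ncapd2, Ncapg and Pbk. Chromosome structure genes together made up 19.6% of the counts (range over libraries 15.8 to 23.1) in the cells with at least 100 counts and 31.7% (28.7 to 35.2) in the S phase-rich cells, while the exit genes Cdc20 and Ube2c made up 10% (7.87 to 14.7) and 1.64% (0.912 to 2.4). Mki67, the proliferation antigen that coats mitotic chromosomes, took mean shares of 2.95% and 3.12%. Its direction varied, with the higher share in the cells with at least 100 counts in 3 of 6 libraries. A lower share need not be a lower level: 48 of the 51 genes had a higher CPM in the cells with at least 100 counts in all 6 libraries, as the cut required of their sum. The exceptions were Spc24 and Ncaph, higher in 5 of 6 libraries, and Kif20a, higher in 4, with Spc24 at a mean of 351 CPM in the cells with at least 100 counts and 250 in the S phase-rich cells. Only 3 and 6 CD48-negative HSC2 cells and 6 and 9 HSC1 cells stand behind those libraries' shares. Of the 3 CD48-negative HSC2 cells, 1 held 4324 counts of the 51 genes and the others 492 and 630, so that 1 cell dominates.

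Genes that followed the sum of the other members most closely from cell to cell were Spc24 (median Spearman's rho 0.63 over the 6 libraries, range 0.51 to 0.74), Top2a (0.62, 0.36 to 0.83), Cdca8 (0.59, 0.45 to 0.78), Pbk (0.57, 0.46 to 0.70) and Cdk1 (0.56, 0.39 to 0.76). The cells of 1 library share their preparation, and genes with more counts can reach a higher rho.

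HPC1 was set against HSC1 to compare a progenitor gate with a stem cell gate at the same CD201 and CD48 classes. Of the 51 members, 49 were higher in HPC1, with a median log2 ratio of 0.69 on the scale of CPM with 10 added, against 0.00 over all 12025 genes and 49.6% of these above 0. At least 2-fold higher were 12 members, where 1.98% of all genes were, and 0 members were at least 2-fold lower, where 2.14% of all genes were. The kinase Pbk had 155 CPM in HPC1 against 55.6 in HSC1 (log2 1.33), the spindle protein Ckap2l 118 against 41.6 (1.31) and Spc25, a partner of Spc24, 166 against 62.1 (1.28). The condensin subunit Ncapd2 had 125 CPM in HPC1 against 48.1 in HSC1 (1.22), and Cdca3, which helps to trigger entry into mitosis, 135 against 55.0 (1.16). Genes of every role were among the higher ones, with medians from 0.46 for the 5 cytokinesis genes to 0.78 for the 4 chromosomal passenger genes, leaving aside the single gene Cdca3.

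At the other end, Cenpf had 98.9 CPM in HPC1 against 131 in HSC1 (log2 -0.38), and Ect2, the exchange factor that starts the cleavage furrow, 8.28 against 9.4 (-0.09). The motors Kif2c (15.1 CPM in HPC1 against 14.2 in HSC1) and Kif23 (49.3 against 46.8) and the exit factor Cdc20 (73.9 against 69.3) were nearly level. Kif20a, the motor of the central spindle, had 4.88 CPM in HPC1 against 0 counts in HSC1. A count of 0 allows up to 0.462 CPM there (3 counts), and the HPC1 value as counted was 10.6-fold above that ceiling. The counting interval in HPC1 ran from 3.69 to 6.34 CPM, so 10.6-fold is not a lower bound. With that ratio for Kif20a the members' median was 0.70. The HPC1 value rests on 1 cell with 75% of the Kif20a counts, and stood at 1.27 CPM without it. Without each gene's highest cell in either library the median was 0.81 and 19 members were at least 2-fold higher, where 1.72% of all genes were. Of 75 other mitosis genes 66 were higher in HPC1 (median 0.52, 9 at least 2-fold), and of 30 S phase genes 28 (median 0.46, 3 at least 2-fold). Of 13 measured cell-cycle inhibitors 6 were higher (median -0.05). Stem and progenitor markers ran the other way, with 0 of 11 higher in HPC1 and sums of 1471 CPM in HPC1 against 2574 in HSC1. Megakaryocyte-platelet markers were higher for 7 of 8, at 3794 CPM in HPC1 against 504 in HSC1. Mature neutrophil markers were higher for 7 of 7 (6 at least 2-fold), at 4373 CPM in HPC1 against 309 in HSC1, and erythroid markers for 6 of 9 (5 at least 2-fold), at 5902 against 2465 CPM. In HPC1, 1 cell held 73% of the mature neutrophil and 1 cell 51.3% of the erythroid counts. Lymphoid progenitor markers were at least 2-fold lower for 4 of 5, at 10.6 CPM in HPC1 against 83.7 in HSC1, where 1 cell held 53.4% of the counts. Without each gene's highest cell 2 of these 5 were at least 2-fold lower, and their median moved from -1.24 to -0.45. The part of these markers in the difference was not tested.

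The MPP2-containing and double-negative libraries were compared next, both from the marrow and both with HPC1 cells among them. All 51 members were higher in the MPP2-containing library, with a median log2 ratio of 1.06, against -0.01 over all genes and 48.4% of these above 0. At least 2-fold higher were 26 members, where 2.07% of all genes were, and 0 were at least 2-fold lower, likewise beside 2.07%. The spindle assembly factor Tpx2 had 164 CPM in the MPP2-containing library against 43.6 in the double-negative library (log2 1.70), the checkpoint kinase Bub1 52.3 against 9.71 (1.66), Ckap2l 121 against 35.8 (1.52), Top2a 602 against 204 (1.52) and the kinetochore motor Cenpe 132 against 40.1 (1.50). Checkpoint and kinetochore genes had the highest median of any role with more than 1 gene, 1.31, with 7 of 9 at least 2-fold higher. Without each gene's highest cell their median was again 1.31, under those of the chromosomal passenger genes (1.42) and of the cyclins and kinases (1.40).

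The smallest differences were those of Ect2 (15.4 CPM in the MPP2-containing against 14.0 in the double-negative library, log2 0.09), Kif20a (5.26 against 3.74, 0.15), Ube2c (466 against 372, 0.32), Cdca2, a phosphatase anchor on chromosomes (58.9 against 42.8, 0.38), and Hmmr (103 against 71.9, 0.46). The double-negative cell with the most counts of a gene held 55.3% of its Ube2c and 45.3% of its Hmmr, against 8.91% and 8.23% in the MPP2-containing library. Without each gene's highest cell Ube2c stood at 1.27 and Hmmr at 1.06, the members' median was 1.28, and 40 were at least 2-fold higher, where 2.45% of all genes were. Of 75 other mitosis genes 71 were higher (median 0.74, 21 at least 2-fold), and of 30 S phase genes 28 (median 0.60, 6 at least 2-fold). Inhibitors were higher for 8 of 13 (median 0.39, 2 at least 2-fold). Stem and progenitor markers were higher for 2 of 11, at 1442 CPM in the MPP2-containing against 1957 in the double-negative library. Granulocyte-monocyte progenitor markers were higher for 7 of 8, at 1850 CPM in the MPP2-containing against 359 in the double-negative library, of which 1 MPP2-containing cell held 41.4%, and mature neutrophil markers for 7 of 7, at 2711 against 785 CPM. Their part in the difference was not tested.

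HSC2/MPP4 was set against CD48-negative HSC2 to compare a mix of CD48+ HSC2 and MPP4 progenitor cells with CD48- HSC2 cells. Only the HSC2 part of the mix shares the HSC2 gate, and its size in the library is not known. All 51 members were higher in HSC2/MPP4, with a median log2 ratio of 0.84, against -0.05 over all genes and 44.0% of these above 0. At least 2-fold higher were 18 members, where 1.94% of all genes were, and 0 were at least 2-fold lower, where 3.37% of all genes were. Aurora kinase B (Aurkb), the enzyme of the chromosomal passenger complex, had 118 CPM in HSC2/MPP4 against 33.1 in CD48-negative HSC2 (log2 1.57), and Kif11, the motor that separates the spindle poles, 91.7 against 24.5 (1.56). Pbk had 110 CPM in HSC2/MPP4 against 36.0 in CD48-negative HSC2 (1.38), the kinetochore protein Nuf2 31.6 against 6.48 (1.34) and Top2a 464 against 183 (1.30). Of the 10 cyclins and kinases 5 were at least 2-fold higher, and of the 9 checkpoint and kinetochore genes 3.

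The genes nearest to equality included 3 that 1 CD48-negative HSC2 cell dominated. Ccnb1 had 79.8 CPM in HSC2/MPP4 against 78.8 in CD48-negative HSC2 (log2 0.02), where 1 cell held 84.9% of the counts, and Ccnb2 144 against 136 (0.08), where 1 cell held 83.9%. Cenpf had 118 CPM in HSC2/MPP4 against 105 in CD48-negative HSC2 (0.16), with 80.1% in 1 cell. Kif20a (1.53 against 1.44 CPM) and Kif23 (72.6 against 64.4 CPM) completed the lowest 5, and the ratio of Kif23 without its highest cells was still 0.41. Ube2c, with 88.3% of its CD48-negative HSC2 counts in 1 cell, stood higher, at 0.59. Without each gene's highest cell the ratios were 1.79 for Ccnb1, 2.08 for Ccnb2 and 1.95 for Cenpf, the members' median was 1.42, and 42 were at least 2-fold higher, where 2.43% of all genes were. With that CD48-negative HSC2 cell and its HSC2/MPP4 counterpart left out for all genes, 43 members were at least 2-fold higher, where 2.32% of all genes were.

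Of 75 other mitosis genes 62 were higher in HSC2/MPP4 (median 0.49, 11 at least 2-fold), and of 30 S phase genes 29 (median 0.87, 13 at least 2-fold). Inhibitors were higher for 6 of 13 (median -0.09, 1 at least 2-fold lower). Stem and progenitor markers were higher for 2 of 11, at 1898 CPM in HSC2/MPP4 against 3146 in CD48-negative HSC2. Granulocyte-monocyte progenitor markers were higher for 8 of 8, at 8960 CPM in HSC2/MPP4 against 582 in CD48-negative HSC2, with 53.8% in 1 HSC2/MPP4 cell, and lymphoid progenitor markers for 5 of 5, at 1273 against 255 CPM. Megakaryocyte-platelet markers were lower for 7 of 8 (4 at least 2-fold), at 63.7 CPM in HSC2/MPP4 against 315 in CD48-negative HSC2, and erythroid markers for 6 of 9 (5 at least 2-fold), at 1105 against 4320 CPM. Of the erythroid counts 1 cell held 39.9% in HSC2/MPP4 and 1 cell 48.1% in CD48-negative HSC2. Without each gene's highest cell 5 erythroid markers were again at least 2-fold lower. The part of these markers in the difference was not tested. Among thinned HSC2/MPP4 cells, those past the cut of 10 genes had a median of 8 granulocyte-monocyte counts per 10000 against 10 in those below it, and a median of 8 lymphoid counts against 6.5. Mature neutrophil markers stood at 5198 CPM in HSC2/MPP4 against 6807 in CD48-negative HSC2, with 98.9% and 95.7% in 1 cell each, both below the cut of 10 genes. In HSC1 the thinned cell with the most such counts (61 per 10000) also lay below the cut. The corresponding cells of HPC1 (1021), the MPP2-containing library (1018) and the double-negative library (1179) lay past it. So did the HPC1 cell with the most erythroid counts (1504).

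CD48-negative HSC2 was set against the double-negative library as a pair of CD48- fractions of different gates. The pair also differs in CD201: CD48-negative HSC2 held CD201+ and CD201- cells, the double-negative library CD201- cells only. This comparison shares its libraries with the 2 comparisons before it. Of the 51 members, 40 were lower in CD48-negative HSC2 and 11 higher, with a median log2 ratio of -0.34 against 0.00 over all genes, of which 49.5% were above 0. At least 2-fold higher were 0 members, where 4.36% of all genes were, and 2 were at least 2-fold lower, where 2.77% of all genes were. These 2 were Ube2c, with 160 CPM in CD48-negative HSC2 against 372 in the double-negative library (log2 -1.17), and Nuf2, with 6.48 against 23.2 (-1.01). Next came Nusap1, which bundles spindle microtubules (46.8 CPM in CD48-negative HSC2 against 102 in the double-negative library), the motor Kif15 (20.2 against 48.4) and Hmmr (34.2 against 71.9). The counts of members past 2-fold were near the background in both directions.

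The highest 5 ratios belonged to Aurora kinase A (Aurka), which matures the spindle poles, with 69.8 CPM in CD48-negative HSC2 against 38.0 in the double-negative library (log2 0.73), to Kif4 (14.4 against 6.37, 0.58), to the checkpoint kinase Ttk (23.4 against 12.8, 0.55), to Kif23 (64.4 against 45.2, 0.43) and to Cenpe (51.1 against 40.1, 0.29). In CD48-negative HSC2, 1 cell held 70.6% of the Aurka counts, and without each library's highest cell the Aurka ratio was -0.34. On the same footing the members' median was -0.74 and 13 were at least 2-fold lower, where 2.51% of all genes were. Of 75 other mitosis genes 43 were lower in CD48-negative HSC2 (median -0.07, 4 at least 2-fold), and of 30 S phase genes 18 (median -0.20, 1 at least 2-fold). Stem and progenitor markers were higher for 7 of 11, at 3146 CPM in CD48-negative HSC2 against 1957 in the double-negative library, and inhibitors for 8 of 13, with 4 at least 2-fold higher and 0 at least 2-fold lower. Megakaryocyte-platelet markers were higher for 0 of 8 and at least 2-fold lower for 5, at 315 CPM in CD48-negative HSC2 against 975 in the double-negative library. Lymphoid progenitor markers were higher for 5 of 5 (4 at least 2-fold), at 255 against 24.5 CPM, and mature neutrophil markers for 6 of 7, at 6807 against 785 CPM, with 95.7% and 61.8% in 1 cell each. The part of these markers in the difference was not tested.

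**Figure D5:**
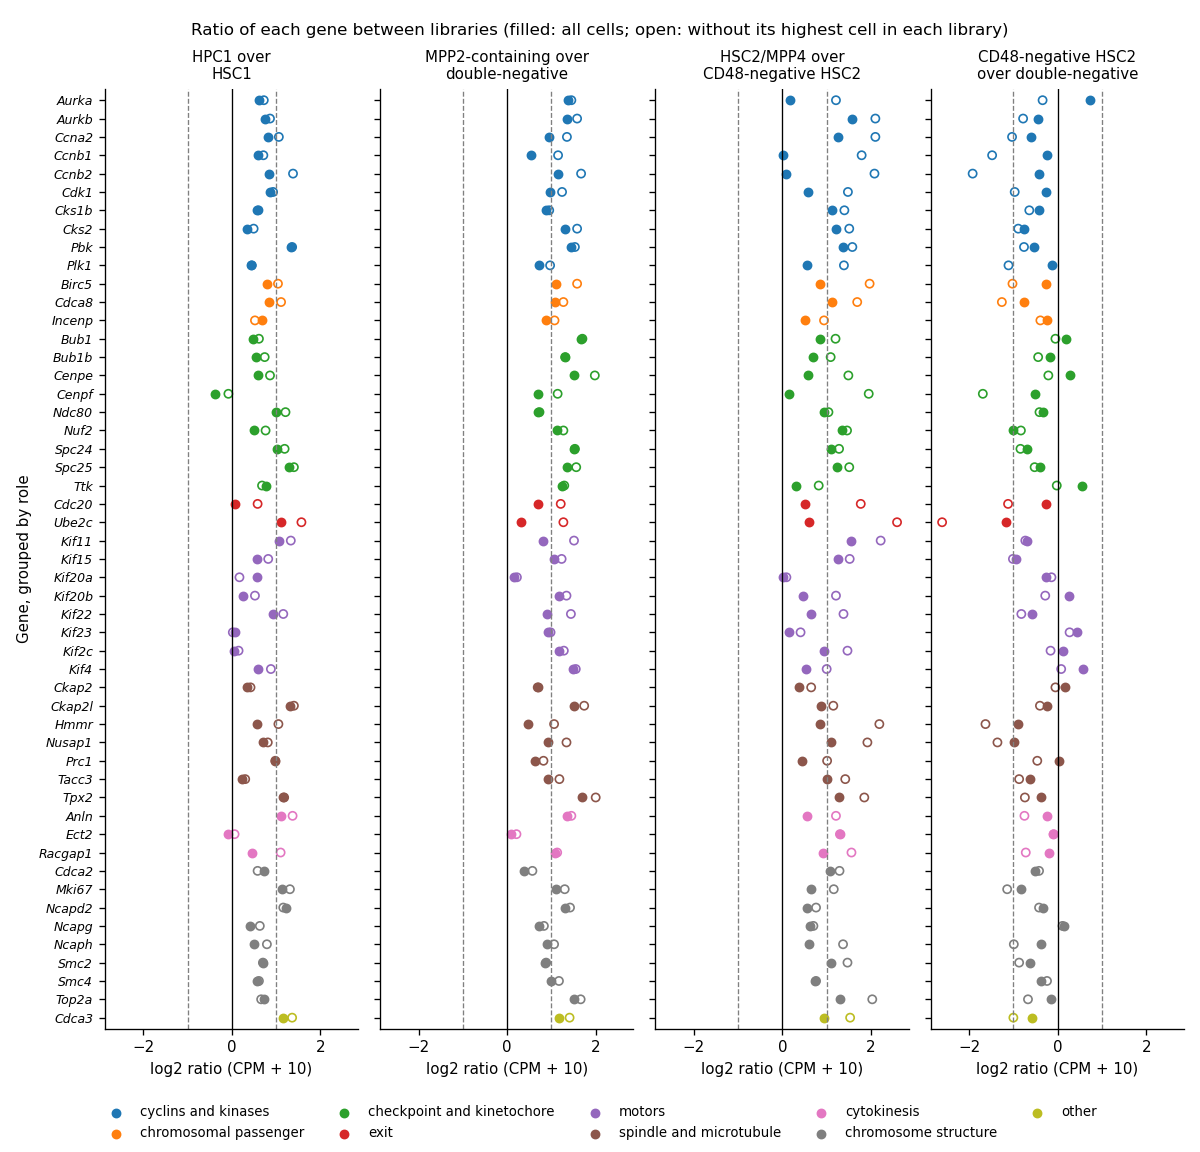
Log2 ratio of CPM with 10 added for each of the 51 genes (rows, grouped by role) in the 4 comparisons (panels); filled points use all cells, open points leave out the gene's highest cell in each library, and dashed lines mark 2-fold. All 51 filled points lie above 0 in the panels of the MPP2-containing library and of HSC2/MPP4, and in that of HSC2/MPP4 the open points of Ccnb1, Ccnb2 and Cenpf lie at 1.79, 2.08 and 1.95.

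Within the cyclin and kinase group, Cdk1 and its partner Ccnb1 were both highest in the MPP2-containing library. Cdk1 stood at 259 CPM in HPC1, 138 in HSC1, 204 in HSC2/MPP4, 134 in CD48-negative HSC2, and 329 in the MPP2-containing library against 163 in the double-negative one. Ccnb1 stood at 67.2 CPM in HPC1, 41.0 in HSC1, 79.8 in HSC2/MPP4, 78.8 in CD48-negative HSC2, and 142 in the MPP2-containing library against 94.5 in the double-negative one. With all cells Ccnb1 was lowest in HSC1, while the Cdk1 intervals of CD48-negative HSC2 (120 to 148) and HSC1 (129 to 147) overlapped. Without its highest cell in each library Ccnb1 was lowest in CD48-negative HSC2, at 12.8 CPM there and 31.4 in HSC1, as was Cdk1, at 60.7 and 112. Thinned cells with a Cdk1 count made up 54.3% of HPC1 and 35% of HSC1, 43.2% of HSC2/MPP4 against 15.2% of CD48-negative HSC2, and 72.5% of MPP2-containing against 37.3% of double-negative cells. Those with a Ccnb1 count made up 19.8% in HPC1 against 15% in HSC1, 18.5% in HSC2/MPP4 against 9.09% in CD48-negative HSC2, and 46.2% in the MPP2-containing library against 10.7% in the double-negative one. Ccnb1 also had fewer counts than Cdk1 in each library, so the shares do not compare the 2 genes.

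The polo kinase Plk1, which drives centrosome maturation and mitotic exit, stood at 53.4 CPM in HPC1, 37.3 in HSC1, 72.9 in HSC2/MPP4, 46.8 in CD48-negative HSC2, and 91.9 in the MPP2-containing library against 52.2 in the double-negative one. Aurkb stood at 76.9 CPM in HPC1 and 41.6 in HSC1, and at 140 in the MPP2-containing library against 49.1 in the double-negative one, beside the values given above. Plk1 differed less between paired libraries than Aurkb, with log2 ratios of 0.42, 0.71 and 0.55 for HPC1, the MPP2-containing library and HSC2/MPP4 over their partners, against 0.75, 1.35 and 1.57. Cks2, the CDK-binding protein with the most counts of the 51 over all cells, stood at 379 CPM in HPC1, 297 in HSC1, 384 in HSC2/MPP4, 160 in CD48-negative HSC2, and 706 in the MPP2-containing library against 280 in the double-negative one.

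Among chromosome genes, Mki67 stood at 199 CPM in HPC1, 85.2 in HSC1, 118 in HSC2/MPP4, 71.3 in CD48-negative HSC2, and 300 in the MPP2-containing library against 135 in the double-negative one. Top2a, which untangles sister chromatids, stood at 385 CPM in HPC1, 230 in HSC1, 464 in HSC2/MPP4, 183 in CD48-negative HSC2, and 602 in the MPP2-containing library against 204 in the double-negative one. By pooled CPM, Mki67 was thus higher in HPC1 than in HSC2/MPP4, and Top2a higher in HSC2/MPP4 than in HPC1. The shares of thinned cells with a count were close and did not repeat this order. Mki67 was counted in 34.6% of HPC1 against 35.8% of HSC2/MPP4 cells, and Top2a in 59.3% against 55.6%. The condensin subunit Smc4 stood at 357 CPM in HPC1, 237 in HSC1, 312 in HSC2/MPP4, 185 in CD48-negative HSC2, and 486 in the MPP2-containing library against 241 in the double-negative one. Smc4 was spread over the most cells of the 10 genes taken as 1 per role, with counts in 88.8% of thinned MPP2-containing cells at most and 50.7% of double-negative cells at least. It was also present below the cut of 10 genes, at 111 to 210 CPM, where Ccnb2 stood at 1.96 to 32.1 CPM.

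The kinetochore gene Ndc80 stood at 53.8 CPM in HPC1, 21.9 in HSC1, 43.3 in HSC2/MPP4, 17.6 in CD48-negative HSC2, and 46.3 in the MPP2-containing library against 24.9 in the double-negative one. Its counting intervals did not overlap in HPC1 (49.6 to 58.2) and HSC1 (18.4 to 25.8), while those of HSC2/MPP4 (37.1 to 50.3) and the MPP2-containing library (43.0 to 49.9) did. The HPC1 interval also overlapped these last intervals. Kif11 stood at 66.2 CPM in HPC1 and 26.5 in HSC1, 91.7 in HSC2/MPP4 against 24.5 in CD48-negative HSC2, and 87.4 in the MPP2-containing library against 45.4 in the double-negative one. For cytokinesis, Racgap1, the centralspindlin subunit that partners Kif23, stood at 64.4 CPM in HPC1, 44.2 in HSC1, 65.7 in HSC2/MPP4, 30.2 in CD48-negative HSC2, and 87.0 in the MPP2-containing library against 36.1 in the double-negative one. Ect2 was highest in HSC2/MPP4 at 44.3 CPM, against 12.2 in CD48-negative HSC2, and lay between 8.28 and 15.4 CPM in the other 4.

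Of the 51 genes, 10 overlap a coding gene on the opposite strand in the annotation, among them Ube2c, Cdc20 and Nusap1, whose partner Oip5 is itself a mitotic gene. The counting is not stated to use strand, so reads of such pairs cannot be told apart. Roles follow a list in which Aurkb, Kif23 and Prc1 each stand in 2 groups. By role, the make-up of the library sums was alike: cyclins and kinases took 28.1 to 30% of the counts and chromosome structure genes 21.9 to 24.7%. The exit genes took 11.1% in the double-negative library against 6.34 to 7.96% in the other 5, where 52.2% of the double-negative exit counts lay in 1 cell.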

How the data were processed

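The authors deposited scores, not counts: per the values, each gene has mean 0 and SD 1 over the 497 cells, with a cap at 10 (0.0762% of values). TopHat, HTSeq and mm10 are named by the submitters' processing notes. Not given in the sources used here are versions, annotation, cell filters and any removal of doublets. Later tables lack gene names, so each line was matched to a named line by its position, after 6 blank lines were dropped. The order was then checked by the joint mean and SD of 9901 uncapped genes.

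Counts were recovered from the deposited scores by undoing the scaling and the regression, whose removed part spans 3 directions, the intercept among them. More covariates than this are described as removed, and the reason for the mismatch was not tested. With a scale factor of 10000, 100% of 2002702 recovered values up to 50 were whole within 0.01. Each gene's scale was chosen to make its low values whole, and genes for which this failed were left out. The share is therefore partly fixed by that choice, and 12025 of 13278 genes were kept. Between 53.3 and 82.2% of a cell's total lies in recovered genes, and 270 capped values are lower bounds, none in the 51 genes, which hold no capped value. In data simulated under the same model, 12012 of 12025 genes were recovered. Their counts were 100% exact, leaving aside values known only as lower bounds. Because the simulation assumes the model, it cannot show whether the deposited scores follow it. All deposited cells were used, without clustering or a doublet caller.

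Levels are pooled CPM. Log2 ratios were taken after adding 10 CPM on both sides, so that changes of low genes are understated; genes past 2-fold were counted. No test was run, since every group is 1 library. The design text gives 324 cells in 7 populations, the joint table holds 322. Alternatives covered the added CPM, pooling, left-out cells, a level filter, centring and the deposited scores. The members and lists were chosen with earlier results of these data known. Named in full were the 5 highest and 5 lowest members per comparison, 1 per role and the 3 with the most counts; others were chosen after their values were seen. Python 3.11.15, numpy 2.4.6 and scipy 1.17.1 were used, with RefSeq promoters (GRCm38.p6) and GENCODE genes (GRCm38).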

Additional observations from a re-analysis of the deposited data

How the results depend on the processing

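No paired analysis was possible because each group has 1 library and the libraries share no replicate beyond that number. The medians for HPC1 over HSC1, MPP2-containing over double-negative and HSC2/MPP4 over CD48-negative HSC2 stayed above 0 under every alternative tried. Only the median for CD48-negative HSC2 over double-negative turned its sign, with the deposited scores (0.02), and the cause was not tested. The other score differences were 0.13 for HPC1 over HSC1, 0.56 for MPP2-containing over double-negative and 0.45 for HSC2/MPP4 over CD48-negative HSC2, on a scale of SDs. For HPC1 over HSC1 the median stood at 0.81 with each gene's highest cell left out, 0.87 without the highest cell of the sum and 1.10 without the deepest 10% of cells, with 19 and 28 members at least 2-fold higher without each gene's highest cell and without the deepest 10%. For MPP2-containing over double-negative it was 1.28 and 1.32 without those highest cells and 1.36 with averaged log values, and 40 and 41 members were at least 2-fold higher without the cells.

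For HSC2/MPP4 over CD48-negative HSC2 the median was 1.36 with mean per-cell CPM, 1.42 and 1.47 without the highest cells and 1.37 without the deepest 10%, with 40, 42, 43 and 43 members at least 2-fold higher. For CD48-negative HSC2 over double-negative these settings gave -0.83, -0.74, -0.78 and -0.78, with 14, 13, 15 and 17 members at least 2-fold lower, and averaged log values gave -0.58. With 1 CPM added in place of 10, 5 members lay past 2-fold on the lower side and 1 on the higher side. Mean per-cell CPM of the 51 genes was 4313 in HPC1, 2509 in HSC1, 4939 in HSC2/MPP4, 1573 in CD48-negative HSC2, 7721 in MPP2-containing and 3185 in double-negative. Without the highest cell the pooled sums were 5337, 2650, 5363, 1575, 8858 and 3171 CPM in the same order. By per-cell CPM the highest cell held 7.01, 10, 9.9, 16.8, 4.06 and 12% and the highest 10% of cells 45.5, 51.3, 45.7, 66.2, 28.8 and 65.4%, where the highest cell held 11.8, 24.3, 15.7, 51.5, 5.67 and 28.5% of the pooled counts.

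At least 5 genes were counted in 95.1, 71.2, 67.9, 33.3, 100 and 72% of thinned cells, in that order. At least 15 were counted in 34.6% of HPC1 and 56.2% of MPP2-containing cells. Thinned to 5000 counts, at least 10 were counted in 32.1% of HPC1, 14.6% of HSC1, 34.5% of HSC2/MPP4 and 61.2% of MPP2-containing cells. Of 126 alternative values 57 stayed close to the reported one. With 1 library per group, intervals cover counting error only and say nothing about mice or preparations. Gates, tissue label, RNA type and library cannot be told apart, and 20 of the 86 CD48-negative HSC2 cells were too shallow for the shares.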
